A study of Homo sapiens with 2 samples.

Results

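The genes that encode the proteasome were described in single cells of CHLA9 and TC71, a pair of Ewing sarcoma cell lines. Members were chosen by symbol alone, from the genes whose name is PSMA, PSMB, PSMC, PSMD, PSME, PSMF or PSMG followed by a number, and were 47 of the 33538 genes in the count matrices. The culture medium of CHLA9 was IMDM with 20% serum and a supplement of insulin, transferrin and selenite, with sequencing on HiSeq and NovaSeq instruments, and that of TC71 was RPMI with 10% serum, with sequencing on a HiSeq alone. Each line was 1 library of 10x Genomics 3′ single-cell RNA, with no treatment, so line, medium and sequencing cannot be told apart and no difference here carries a test. The other cell line of the series was not analysed here.

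The proteasome is the barrel-shaped protease that degrades proteins tagged with ubiquitin. Its 20S core is built from alpha rings, which form the gate, and beta rings, which hold the proteolytic sites, and each constitutive subunit is present in equal number in the assembled core. The 19S cap sits on the core, with a base of ATPases that unfold substrates and a lid that removes ubiquitin. Dedicated chaperones assemble core and base, other caps activate the core without ubiquitin, and interferon gamma replaces catalytic beta subunits with inducible ones to form the immunoproteasome. Cells that lack proteasome activity raise the transcripts of the subunits together through NFE2L1, a factor that binds the antioxidant response element in many of their promoters.

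After cells with under 5000 UMIs, under 2000 genes or over 15% mitochondrial UMIs were left out, 4524 CHLA9 cells and 1729 TC71 cells remained, with medians of 34656 and 33370 UMIs. Both libraries held Ewing sarcoma transcripts, with the 7 marker genes CD99, NKX2-2, NR0B1, FLI1, STEAP1, CCND1 and PRKCB summing to 4166 and 2454 CPM, against 26.7 and 15.95 CPM for 7 markers of leukocytes, epithelium, endothelium and fibroblasts. Of those, PTPRC was at 0.0514 and 0.0857 CPM and PECAM1 at 0.0114 CPM and 0. The highest of them were DCN with 13.6 and 2.86 CPM and KRT8 with 6.98 and 8.62 CPM. In CHLA9, DCN was above NKX2-2, which had 9.89 CPM there. CCND1 alone held 2510 and 1451 CPM of the Ewing sarcoma sums. The libraries shared 16 cell barcodes, 3 of them among the kept cells.

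Levels are UMIs summed over the cells of a line per 1000000 UMIs (CPM), with exact 95% Poisson intervals, and all intervals cover counting error only. A 3′ UMI stands for 1 molecule, so levels of different genes were set side by side without dividing by length. Summed over all members, CHLA9 held 9411 CPM of proteasome transcripts (9397 to 9425) and TC71 held 9531 CPM (9506 to 9556). That is 0.941% and 0.953% of all UMIs, or 364 and 322 UMIs per cell. The log2 ratio of TC71 to CHLA9 was 0.018 (0.014 to 0.023) for the sum. The sums were therefore close while single members of at least 10 CPM lay as far apart as a log2 ratio of -2.04, and scaling the libraries by the median ratio of all genes moved the ratio of the sums to 0.17.

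**Figure D1:**
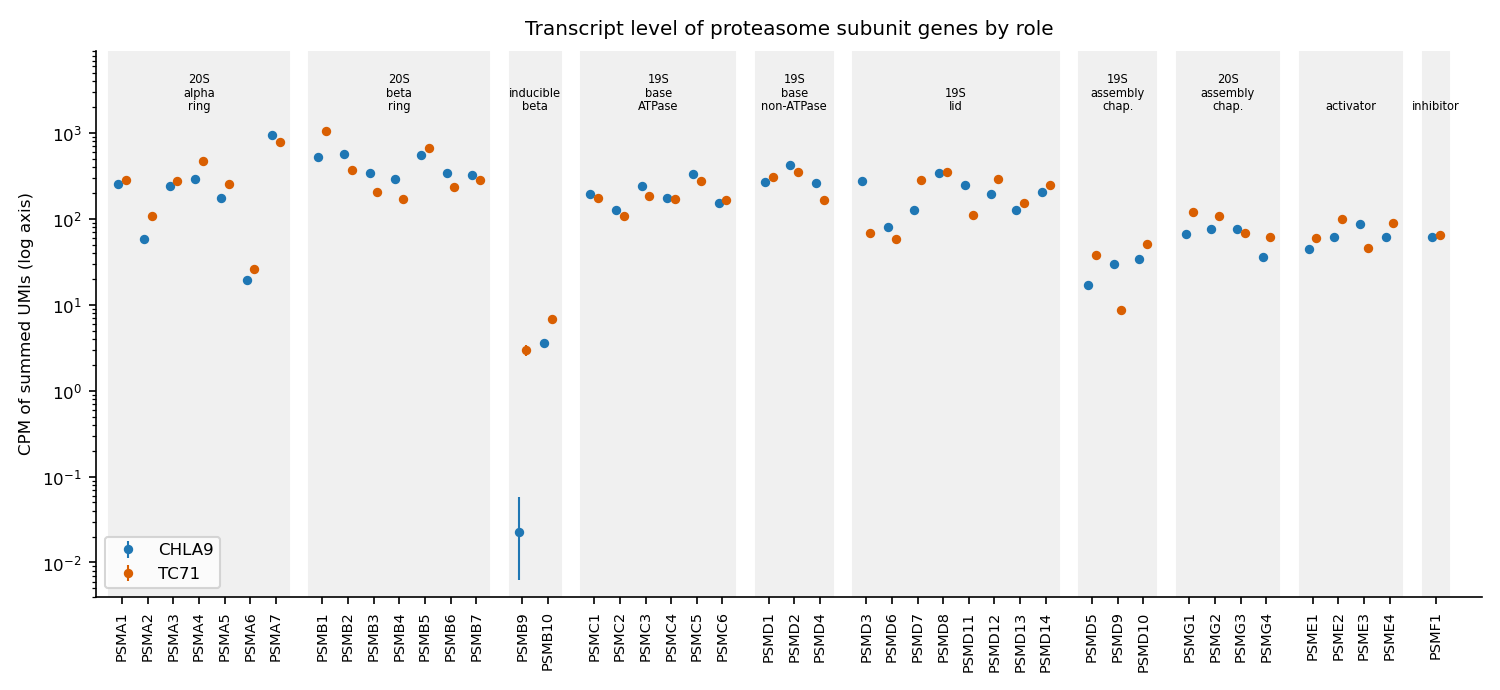
CPM of 45 members in CHLA9 (blue) and TC71 (orange) on a log axis, grouped by role, with exact 95% Poisson intervals that are mostly smaller than the points. PSMA6 sits at 19.2 and 26.0 CPM below the other alpha subunits and PSMB9 at 0.0229 CPM in CHLA9, and the 2 members with no UMI are not drawn.

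With PSMA6 counted, the alpha ring was less even than the beta ring. The SD of log2 CPM over its 7 genes was 1.81 in CHLA9 and 1.60 in TC71, where the beta ring had 0.41 and 0.96. PSMA7, the alpha 4 subunit, was highest of the ring with 957 CPM in CHLA9 and 790 CPM in TC71. PSMA6, the alpha 1 subunit, was lowest with 19.2 CPM (18.6 to 19.9) in CHLA9 and, in TC71, 26.0 CPM (24.7 to 27.3). The ring thus spanned 49.7-fold and 30.4-fold among subunits that the core holds in equal number. Without PSMA6, the alpha genes of CHLA9 lay between 57.7 and 957 CPM, where the beta genes lay between 291 and 568 CPM. Those of TC71 lay between 109.7 and 790 CPM, beside 171 and 1061 CPM for the beta genes. In TC71 the contrast between the rings therefore rests on PSMA6. The annotation names 4 pseudogenes of PSMA6 and a protein-coding locus that shares its exons on the same strand, while PSMA7 has neither. Such a locus also shares exons with PSMA1 and with PSMA2. Reads that fit several loci may be missing from a gene's count. Between these ends, PSMA1 stood at 257 and 282 CPM, PSMA3 at 244 and 279 CPM, PSMA5 at 176 and 256 CPM and PSMA4 at 289 and 473 CPM. PSMA2 was second from the bottom with 57.7 and 109.7 CPM, and has 3 named pseudogenes. Pseudogenes did not go with low levels throughout, since the ATPase gene PSMC1 has 13 and stood at 195 and 174 CPM, and their part in any level was not tested.

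The beta ring was even in CHLA9 and uneven in TC71. In CHLA9 its 7 constitutive subunits lay between 291 CPM for PSMB4, a structural subunit, and 568 CPM for PSMB2, also structural, a 1.95-fold range. In TC71 they lay between 171 CPM for PSMB4 and 1061 CPM for PSMB1, a 6.22-fold range. PSMB1 was the highest of all 47 members in TC71, and at 522 CPM it was the fourth in CHLA9. The 3 catalytic subunits were PSMB5, which cleaves after hydrophobic residues, at 552 and 669 CPM, PSMB6, which cleaves after acidic residues, at 344 and 236 CPM, and PSMB7, which cleaves after basic residues, at 329 and 286 CPM. Their order, PSMB5 first, then PSMB6 and PSMB7 in CHLA9 but PSMB7 and PSMB6 in TC71, rested on intervals that did not touch. PSMB3, another structural subunit, had 347 and 208 CPM.

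The 19S genes were lower and closer to each other than those of the core. The 14 constitutive core genes had medians of 310.2 and 280.03 CPM, and the 17 cap genes had medians of 204 and 174 CPM. Among the 6 ATPases, PSMC5 was highest with 336 and 277 CPM and PSMC2 lowest with 128 and 108 CPM. PSMC2 shares exons with PMPCB on the same strand, itself at 56.9 and 62.5 CPM. Among the other base subunits, PSMD2, a scaffold that receives ubiquitin-like domains, was highest with 426 and 355 CPM and the ubiquitin receptor PSMD4 lowest with 264 and 168 CPM. In the lid, PSMD8 was highest with 340.3 and 351 CPM and PSMD6 lowest with 80.2 and 57.8 CPM. PSMD14, the deubiquitinase of the lid, had 204 and 247 CPM.

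As a summary of evenness, the SD of log2 CPM was 1.43 and 1.32 over the core genes and 0.63 and 0.78 over the cap genes. Without PSMA6, left out after its level was seen, the core value was 0.98 and 0.92. For comparison, the 8 subunits of the CCT chaperonin, a ring that also holds its subunits in equal number, had 0.44 and 0.42, and 77 cytosolic ribosomal protein genes had 1.21 and 1.14. The order of subunits was partly kept between lines, with Spearman's rho of 0.69 over the 14 core genes, 0.50 over the 17 cap genes, 0.84 over the 43 members with a mean of at least 10 CPM and 0.80 over all 8565 such genes. These values are across genes, which are not independent replicates.

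Assembly factors and alternative caps stood below most subunits of the core and cap, though several exceeded PSMA2 or PSMA6. The 20S chaperones PSMG1 to PSMG4 ranged from 36.3 CPM for PSMG4 to 76.9 CPM for PSMG2 in CHLA9, and from 62.1 CPM for PSMG4 to 120.5 CPM for PSMG1 in TC71. The 19S base chaperones ranged from 17.04 CPM for PSMD5 to 34.0 CPM for PSMD10 in CHLA9, and from 8.72 CPM for PSMD9 to 51.3 CPM for PSMD10 in TC71. PSMF1, which inhibits the core, had 61.4 and 65.7 CPM. The nuclear 11S subunit PSME3 was the highest activator in CHLA9 with 88.1 CPM and the lowest in TC71 with 45.4 CPM. PSME1 and PSME2, which form the cytoplasmic 11S ring, had 45.0 and 62.3 CPM in CHLA9 and 60.5 and 98.8 CPM in TC71, so PSME2 exceeded PSME1 1.38-fold and 1.63-fold. PSME4, a single-chain activator, had 61.1 and 89.01 CPM.

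The inducible catalytic subunits were nearly absent next to their constitutive partners. PSMB9 takes the place of PSMB6, and it had 4 UMIs in CHLA9 and 173 UMIs in TC71, or 0.0229 CPM (0.00623 to 0.0585) and 2.96 CPM (2.54 to 3.44). PSMB10 takes the place of PSMB7, and it had 625 and 404 UMIs, or 3.57 CPM (3.30 to 3.86) and 6.92 CPM (6.26 to 7.63). Out of the UMIs of each pair, PSMB9 made up 0.00664% in CHLA9 (Clopper-Pearson interval 0.00181 to 0.0170) and 1.24% in TC71 (1.06 to 1.44). PSMB10 made up 1.07% (0.992 to 1.16) and 2.36% (2.14 to 2.60). Both inducible genes were thus above CHLA9 in TC71 beyond counting error, while the constitutive genes exceeded them 187-fold in CHLA9 and 52.8-fold in TC71. PSMB10 shares exons with a protein-coding locus on its strand that had 0.937 and 1.80 CPM. PSMA8 and PSMB11, subunits known from testis and thymus, had 0 UMIs in both lines, with upper interval limits of 0.0211 CPM in CHLA9 and 0.0632 CPM in TC71.

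In cells, with each thinned to 10000 UMIs, PSMB9 was found in 1 of 4510 CHLA9 cells (0.0222%, 0.000561 to 0.123) and 48 of 1670 TC71 cells (2.87%, 2.13 to 3.79). No cell type that should lack these genes is present in either library, so free RNA could not be measured. Before thinning the shares were 0.0884% and 8.56%. In TC71, 9 cells held both PSMB9 and TAP1, the peptide transporter gene next to it, where the product of the separate shares gives 3.1 cells. PSMB10 and TAP1 were found together in 12 cells against 6.92, and PSMB9 and PSMB10 in 2 against 3.08. TAP1 itself had 0.0629 and 5.5 CPM in the lines, and the interferon-induced factor IRF1 had 1.62 and 3.98 CPM.

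PSMB9 and TAP1 are shown because they lie head to head on chromosome 6 and both had far more UMIs in TC71. Their promoters, from 250 bases before to 50 after the start site of each (RefSeq, GRCh38.p14), meet in 13 shared bases. Capitals mark matches to the antioxidant response element (TGACNNNGC) or to an interferon regulatory factor motif (GAAANNGAA), on either strand.
PSMB9, chr6:32853942-32854241, plus strand: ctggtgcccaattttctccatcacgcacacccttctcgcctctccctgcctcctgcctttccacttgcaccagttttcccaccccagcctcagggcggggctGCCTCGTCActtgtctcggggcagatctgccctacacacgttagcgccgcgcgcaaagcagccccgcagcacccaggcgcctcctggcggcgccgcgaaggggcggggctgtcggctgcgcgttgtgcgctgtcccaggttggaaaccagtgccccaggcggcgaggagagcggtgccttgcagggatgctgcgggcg
TAP1, chr6:32853655-32853954, minus strand: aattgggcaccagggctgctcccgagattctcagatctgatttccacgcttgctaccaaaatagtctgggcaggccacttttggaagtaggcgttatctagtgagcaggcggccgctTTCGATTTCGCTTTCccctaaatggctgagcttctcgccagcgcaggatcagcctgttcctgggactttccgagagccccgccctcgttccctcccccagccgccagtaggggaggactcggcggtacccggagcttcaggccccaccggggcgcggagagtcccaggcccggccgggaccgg
The PSMB9 window held 1 match to the first motif and none to the second. In the TAP1 window were 2 overlapping matches to the second and none to the first. Since each window lies just upstream of the other, no match in a window does not mean that none lies near its gene. The interferon regulatory factor letters were in 8.29% of all 27305 promoters and in 7 of the 41 member promoters of the table (PSMA4, PSMB4, PSMB10, PSMC2, PSMG4, PSME1 and PSME2).

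Between lines, 43 members had a mean of at least 10 CPM and were compared with all 8565 such genes. At a threshold of 1.5-fold, 10 members (23.3%) were higher in TC71, beside 14.9% of all genes, and 8 members (18.6%) were higher in CHLA9, beside 29.6%. The median log2 ratio was 0.11 over the members and -0.19 over all genes, and the median size of the ratio without its sign was 0.51 in both. Under median-of-ratios scaling the split was 13 against 6, beside 19.8% and 23.03% of all genes, so the balance of directions depends on the scaling. The summed core genes had a log2 ratio of 0.08 and the summed cap genes -0.13, and under median-of-ratios scaling these were 0.23 and 0.024, so the direction of the cap depends on the scaling. The CCT genes, in contrast, differed less from each other, with an SD of their log2 ratios of 0.28 where the core genes had 0.61 and the cap genes 0.71.

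The members highest in TC71 came from different modules. PSMD7, a lid subunit that pairs with PSMD14, went from 126 CPM in CHLA9 to 286 CPM in TC71, a log2 ratio of 1.18 (1.15 to 1.21). PSMD5, a base chaperone, went from 17.04 to 37.6 CPM (1.14, 1.06 to 1.22). PSMB1 went from 522 to 1061 CPM (1.02, 1.01 to 1.04). PSMA2 had a log2 ratio of 0.93 and PSMG1, a chaperone of the alpha ring, of 0.84. The other members past the threshold were PSMG4 (0.77), PSMA4 (0.71), PSME2 (0.67), PSMD12 (0.60) and PSMD10 (0.59).

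The members highest in CHLA9 included the 2 largest differences among the 43 members of at least 10 CPM. PSMD3, a lid subunit, went from 281 CPM (278 to 283) in CHLA9 to 68.4 CPM (66.3 to 70.5) in TC71, a log2 ratio of -2.04 (-2.08 to -1.99). At 10000 UMIs a cell, PSMD3 was found in 92.1% of CHLA9 cells and 48.7% of TC71 cells. PSMD9, a base chaperone, went from 30.1 to 8.72 CPM (-1.79, -1.92 to -1.65), and it shares exons with a protein-coding locus at 0.760 and 0.137 CPM. The lid subunit PSMD11 had a log2 ratio of -1.17, PSME3 of -0.96 and PSMB4 of -0.77. PSMB3 (-0.74), PSMD4 (-0.65) and PSMB2 (-0.60) completed the list. In TC71 the lid therefore held PSMD8, PSMD12 and PSMD7 at 351, 294 and 286 CPM but PSMD3 and PSMD6 at 68.4 and 57.8 CPM, and its SD of log2 CPM was 1.01, where it was 0.69 in CHLA9.

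The line difference of a member went with that of the genes around it. For each of the 43 members, the median log2 ratio of the tested non-member genes within 10 Mb was taken, and it had a Spearman's rho of 0.74 with the member's own ratio, as a description over genes that partly share neighbours. Over 8487 non-members treated the same way, rho was 0.48. The signs were equal in 30 of 43 members (69.8%), beside 69.9% of those genes. On chromosome 17, whose 523 tested genes had a median of -0.87, the neighbours of PSMB3, PSMD3, PSMD11, PSME3 and PSMB6 had medians of -1.22, -1.18, -1.22, -1.21 and -1.09. On the same chromosome, PSMD12 and PSMC5 had neighbours at -0.22 and -0.13 and log2 ratios of 0.60 and -0.28. On chromosome 1, PSMB2, PSMB4 and PSMD4 had ratios of -0.60, -0.77 and -0.65 beside neighbours at -0.71, -0.77 and -0.76, while PSMA5 on the same chromosome had 0.54 beside 0.05. PSMB1 on chromosome 6 and PSMD7 on chromosome 16 had neighbours at 0.61 and 0.60.

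The distance from the neighbours differed between members. Relative to its neighbours on chromosome 12, PSMD9 had a log2 difference of -1.64, and PSMD3 had one of -0.86 from those on chromosome 17. PSMD5, PSMA2, PSMG1 and PSMD12 lay 1.31, 1.12, 0.96 and 0.82 above theirs. In all, 18 of 43 members (41.9%) were outside the middle range (first to last quartile) of the genes around them, beside 51.4% of the non-members. Relative to their neighbours, 12 members changed sign, and the share of non-members that did so was not counted. Of the 18 members past 1.5-fold these were PSMB2, PSMB3, PSMD4, PSMD11 and PSME3, at 0.11, 0.48, 0.11, 0.05 and 0.25. The other 7 were PSMA6, PSMA7, PSMB6, PSMC2, PSMC4, PSMD6 and PSMG3, and PSMB6 moved most among them, from -0.54 to 0.55.

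**Figure D2:**
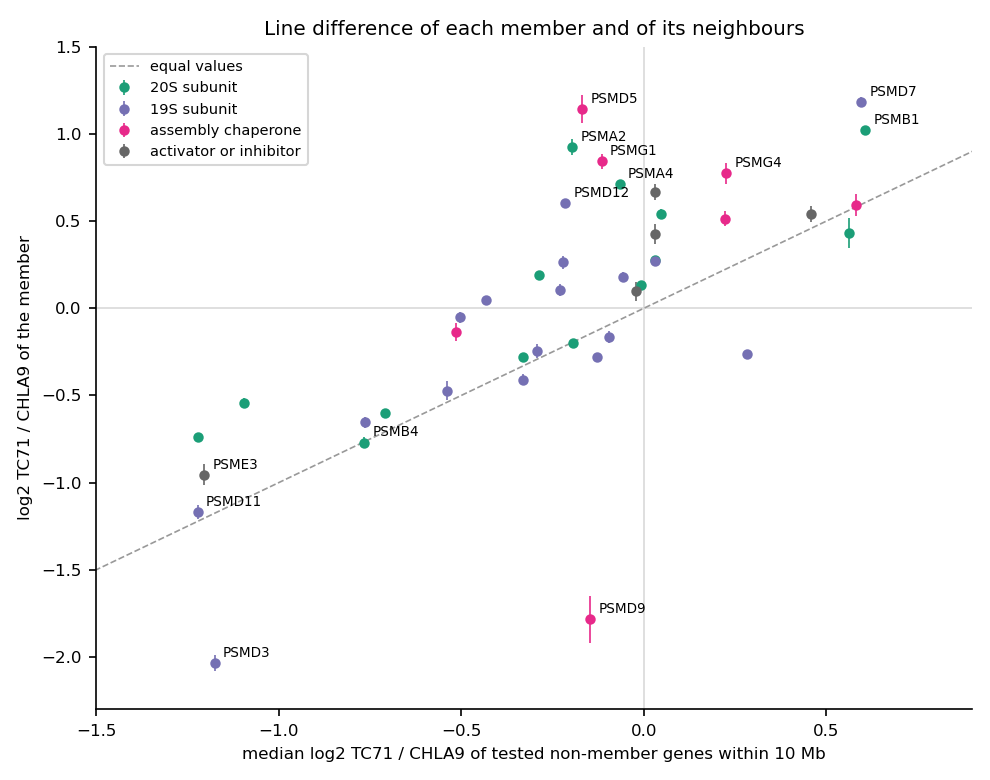
Log2 ratio of TC71 to CHLA9 of each of 43 members (vertical, with exact 95% counting intervals) against the median of the same ratio over the tested non-member genes within 10 Mb (horizontal). Points near the dashed line equal their neighbours, as PSMB4 and PSMD11 do, and PSMD9 (-1.79) and PSMD3 (-2.04) lie far below it.

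Promoters of 41 members were in the RefSeq table, those of PSMA7, PSMB1, PSMB6, PSMB7, PSMD4 and PSMG3 being the rest. The antioxidant response element letters, TGACNNNGC on either strand, were in 13 of the 41 (31.7%), beside 13.6% of all 27305 promoters. In the core they were in 1 of 10 promoters (10%) and in the cap in 4 of 16 (25%), and the rest belonged to chaperones, activators and PSMB9. Sites of PSMB3, PSMC4, PSMD3, PSMD12 and PSMG1 are shown as examples, because subunit genes are known to respond through this element. That of PSMB9 is in its promoter above. Those of PSMD1, PSMD5, PSMD9, PSMG2, PSME1, PSME2 and PSME4 are not printed. The matched letters are in capitals, with 10 bases on either side where the window allows. ADRM1, a ubiquitin receptor of the cap outside the symbol rule, is added.
PSMB3, chr17:38752627-38752655, plus strand: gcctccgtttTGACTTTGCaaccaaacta
PSMC4, chr19:39971182-39971210, plus strand: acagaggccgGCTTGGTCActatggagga
PSMD3, chr17:39980760-39980788, plus strand: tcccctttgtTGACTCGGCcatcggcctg
PSMD3, chr17:39980830-39980856, plus strand: gtttgcagctGCTCCGTCAtcgtgcgg
PSMD12, chr17:67366724-67366752, minus strand: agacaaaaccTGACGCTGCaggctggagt
PSMG1, chr21:39183616-39183644, minus strand: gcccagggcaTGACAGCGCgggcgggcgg
ADRM1, chr20:62302749-62302777, plus strand: cgctcccctaTGACACAGCaacaataggg
PSMD3 and PSMD9 each held 2 matches. PSMD3 and PSMD9 were lower in TC71 and PSMD12 and PSMG1 higher, so members with these letters were found on both sides of the line difference.

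A second motif was in a larger share of the cap promoters than of all promoters. The letters CCGGAAG, the core bound by ETS factors, were on either strand of 9 of 16 cap promoters and 0 of 10 core promoters in the table, beside 10.7% of all promoters and 13 of the 41 member promoters. The shorter letters CGGAAG, on either strand, were in core promoters as well, such as those of PSMA4, PSMA5, PSMB3 and PSMB4. A count of 0 in 10 core promoters is also near the share of all promoters, 10.7%. The table lacks the promoters of the core genes PSMA7, PSMB1, PSMB6 and PSMB7. No split between core and cap is therefore drawn from these letters. The Ewing sarcoma fusion protein has an ETS domain, which is why these sites are printed, for 7 of the 9 cap genes, and no match says only that these letters are not in the window.
PSMC1, chr14:90256553-90256579, plus strand: ggtggaggaaCTTCCGGcagcggcagc
PSMC6, chr14:52707083-52707109, plus strand: acggggccaaCCGGAAGgggagggctc
PSMD6, chr3:64023515-64023541, minus strand: ggagacgggaCCGGAAGccgggccgca
PSMD7, chr16:74296802-74296828, plus strand: ggctgacgaaCCGGAAGaagaggaact
PSMD8, chr19:38374544-38374570, plus strand: caaaagccaaCTTCCGGtcaccatctt
PSMD12, chr17:67366569-67366595, minus strand: gcgcgggcaaCTTCCGGtgtgggtgac
PSMD14, chr2:161308411-161308437, plus strand: actagtgaacCCGGAAGtgcttcgcgg
The 7 matches lie from 107 bases before to 11 bases after the start site. GC boxes (GGGCGG) were in 65.9% of member promoters beside 44.6% of all, and CCAAT boxes (CCAAT) in 46.3% beside 35.7%.

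Cells were assigned to G1, S and G2M per library by Seurat's scores, from gene lists that hold 0 members. CHLA9 had 1015, 1743 and 1766 cells in these phases and TC71 had 226, 834 and 669. The share of UMIs held by the proteasome genes was lower in later phases in both lines. In CHLA9 the sum was 10020.3 CPM in G1, 9587 CPM in S and 9008 CPM in G2M, and in TC71 it was 10030.1, 9790.3 and 9111 CPM. The log2 ratio of G2M to G1 was -0.15 (-0.16 to -0.15) in CHLA9 and -0.14 (-0.15 to -0.13) in TC71. Counts of molecules went the other way, with 316, 363 and 393 member UMIs per cell in CHLA9 and 284, 322 and 335 in TC71, beside a median of 29196 and 40896 UMIs of all genes per cell in G1 and G2M of CHLA9 and of 29048 and 37014 in TC71.

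The lower CPM in G2M was more marked for the core than for the cap. Between G1 and G2M the log2 ratio was -0.20 and -0.21 for the core genes and -0.11 and -0.06 for the cap genes, beside -0.15 and -0.18 for ribosomal protein genes, -0.14 and -0.04 for CCT genes and medians of 0.03 and 0.10 over all genes. Intervals lay below 0 for 13 of 14 core genes in CHLA9 and 12 of 14 in TC71, where 29.5% and 14% of all genes did. For the cap they did so for 13 and 7 of 17 genes, and for ribosomal proteins for 76 and 72 of 77 genes. PSMA7 and PSMA5 of the alpha ring were lower in G2M in both lines, with log2 ratios of -0.27 and -0.27 for PSMA7 and -0.33 and -0.34 for PSMA5. The members' ratios had a rho of 0.66 between lines over 43 genes, and 21 members were below 0 beyond counting error in both lines and 0 above. Neither this rho nor the joint share was computed over all genes, so they are not shown to be particular to the members. From G1 to S the ratios were smaller, -0.06 and -0.03 for the sum, and their rho between lines was -0.18.

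Few single members differed between phases by a ratio of 5 to 4 or more. In CHLA9, none was higher in S (12.9% of all genes were), PSMD10 was lower in S (-0.35, beside 5.35% of all genes), PSMG2 was higher in G2M (0.41, beside 14.2%), and PSMG4 (-0.54) and PSMA5 were lower in G2M (beside 5.67%). In TC71, PSMD9 was higher in S (0.33, beside 10% of all genes), none was lower in S (3.2%), PSMD5 was higher in G2M (0.53, 0.30 to 0.76, beside 22.8%) and PSMA5 was lower in G2M (beside 3.33%). The chaperones thus gave most of these calls, and none of theirs was made in both lines. PSMD9 rested on 509 UMIs in TC71, and the interval of its S to G1 ratio, -0.11 to 0.80, included 0.

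Across single cells of a line, core and cap transcripts varied together. To make cells comparable, each was thinned to 10000 UMIs, which left 4510 and 1670 cells and took out 14 and 59 shallower ones. The mean of the summed members was then 95.03 UMIs a cell in CHLA9 (5th to 95th percentile 70 to 123) and 95.3 in TC71 (71 to 123). The variance was 2.99 and 2.68 times that of a random draw, which leaves a coefficient of variation between cells of 14.4% and 13.2%. Spearman's rho of summed core with summed cap UMIs was 0.42 in CHLA9 and 0.32 in TC71, over cells that share a library and a fixed depth. Corrected for the counting noise of either sum, Pearson's r was 0.86 and 0.73. Alpha with beta ring had rho of 0.31 and 0.30, and base ATPases with the lid 0.22 and 0.17.

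The relation of core with cap was set beside that with other complexes. Core with CCT genes had rho of 0.17 and 0.14 and cap with CCT genes 0.23 and 0.20. The core was thus less related to CCT than to the cap. The rho of cap with CCT was above that of base ATPases with the lid, which are smaller sums with more counting noise. Corrected for this noise, r was 0.47 and 0.53 for cap with CCT and 0.84 and 0.86 for base ATPases with the lid. Core and cap parted in their relation to ribosomal protein genes, where the core had rho of 0.17 and 0.34 and the cap -0.05 and -0.01. In TC71 the rho of core with ribosomal protein genes was thus above that of core with cap. Corrected for counting noise the order was the reverse, with r of 0.43 for ribosomal protein genes and 0.73 for the cap. The relation of core with cap was present in every phase, with 0.32 in G1, 0.45 in S and 0.40 in G2M of CHLA9, and 0.45, 0.27 and 0.32 in TC71. The summed members had rho of -0.27 and -0.24 with the G2M score, -0.12 and -0.01 with a cell's UMIs, and -0.06 and -0.26 with its mitochondrial percent. The part of these in the relation of core with cap was not tested beyond the values by phase and at most 10% mitochondrial UMIs, where rho was 0.41 and 0.33.

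Pairs of single members were only weakly related at this depth, and no pair on its own is a finding. Among the 36 members of at least 50 CPM in both lines, the median Pearson's r of log(1 + UMIs) was 0.034 and 0.025 over 630 pairs, beside 0.0014 and 0.0014 over all pairs of 2681 genes. It was 0.060 and 0.062 within the core, 0.041 and 0.024 within the cap and 0.044 and 0.030 between them. The highest pair in both lines was PSMA7 with PSMB1, at 0.14 and 0.18. In the core, 100% of pairs were above 0 in CHLA9 and 93.6% in TC71. Members with more UMIs have less counting noise, which raises their r. PSMG1, PSMG2, PSMG3, PSME2 and PSMF1 had rho between 0.01 and 0.10 with the other members, and PSME4 had -0.09 in TC71.

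**Figure D3:**
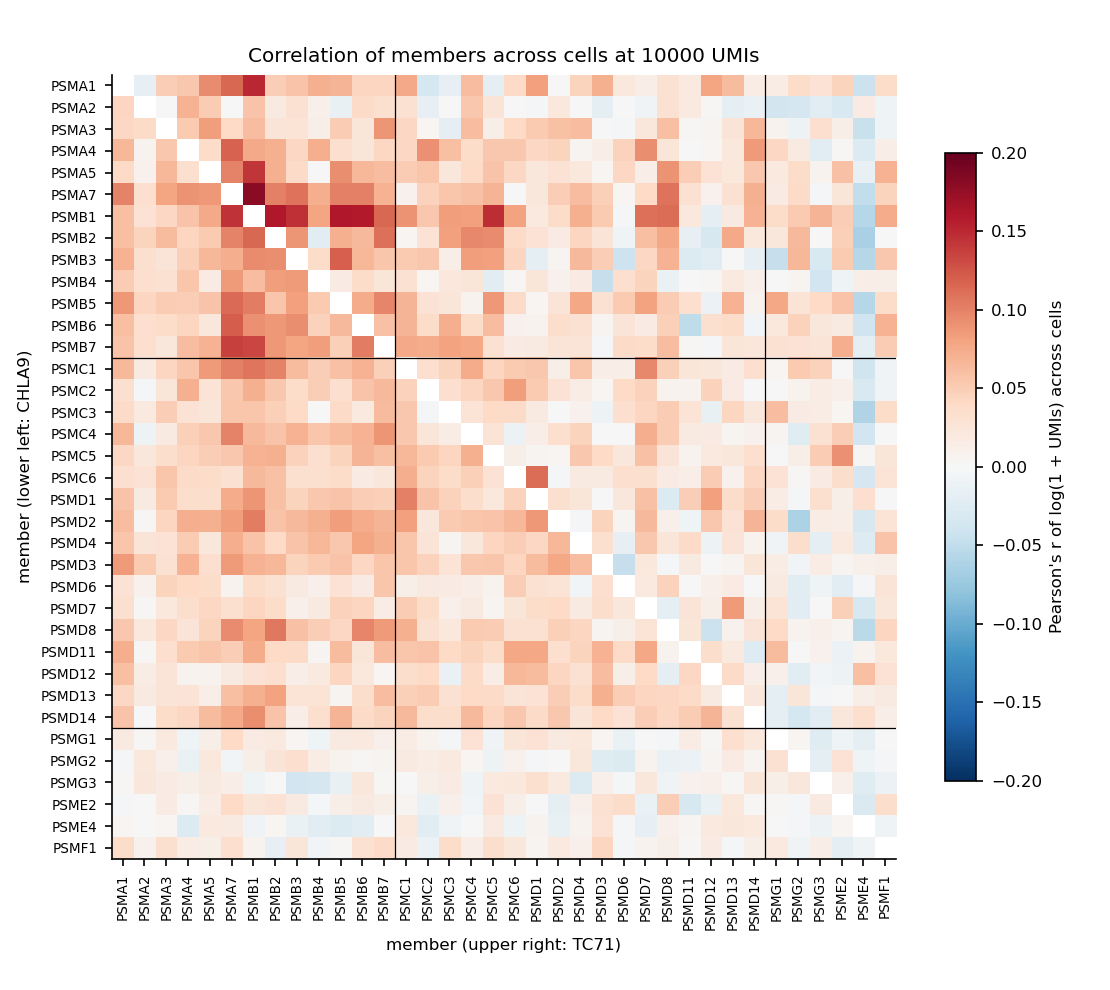
Pearson's r of log(1 + UMIs) across cells thinned to 10000 UMIs for pairs of 36 members, with CHLA9 in the lower left, TC71 in the upper right and black lines between core, cap and other members. Rows of PSMA7 and PSMB1 are darkest, at 0.14 and 0.18 for their own pair, and the rows of chaperones and activators are pale.

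The genes that varied most with the summed members included a pair of proteasome cofactors, POMP and ADRM1, among the first 10. Out of 2645 non-members of at least 50 CPM in both lines, PRDX1, a peroxidase of the cytosol, had the highest rho in both lines, 0.32 and 0.39. POMP, a chaperone of beta ring assembly, was next by the lower of the lines with 0.22 and 0.22, ranking 4 and 24. ADRM1 had 0.19 and 0.25, ranking 12 and 9. The others of the first 10 were HSPE1, C1QBP, NME1, GAPDH, ATP5MC3, RPS26 and NACA. Of the other cofactors, TXNL1 had 0.14 and 0.14 and SEM1 had 0.09 and 0.06. The rest of those with a value were near 0 or below. These were UCHL5 with 0.01 and 0.05, USP14 with 0.02 and 0.00069, ZFAND5 with 0.00023 and -0.06 and ECPAS with -0.0045 and -0.10. Within phases, POMP kept 0.17, 0.18 and 0.23 in G1, S and G2M of CHLA9 and 0.31, 0.20 and 0.14 in TC71. The members' own median rho with the other members was 0.16 and 0.12, and that of non-members 0.014 and 0.011. At the other end were the nuclear RNA MALAT1 (-0.30 and -0.37) and the mitotic genes CENPF (-0.27 and -0.28), TOP2A, ASPM and TPX2.

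**Figure D4:**
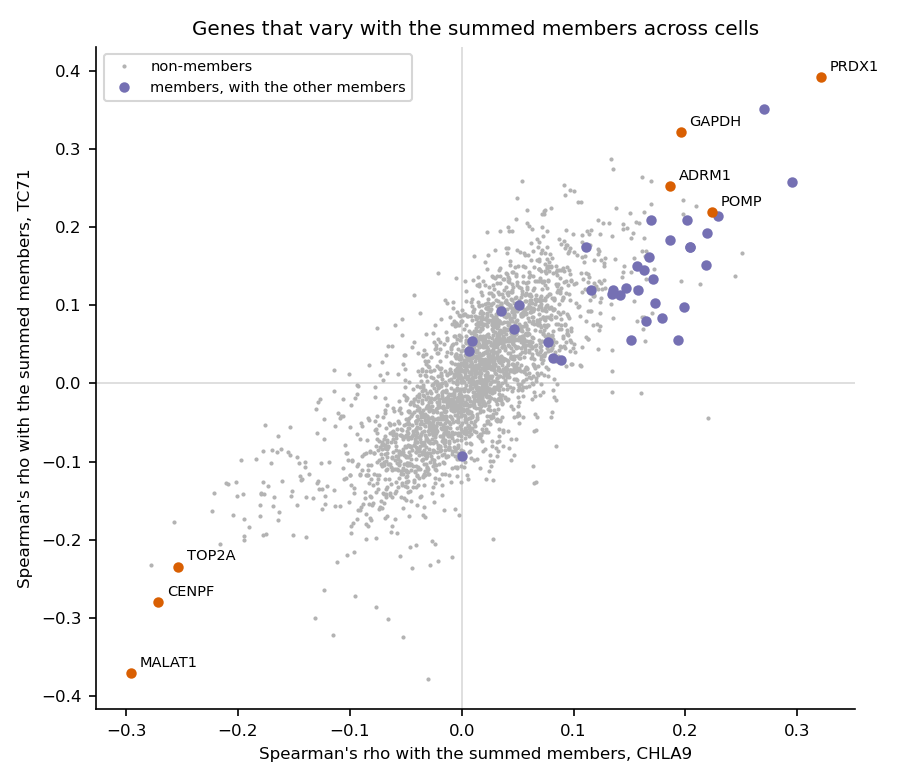
Spearman's rho with the summed members across thinned cells in CHLA9 (horizontal) and TC71 (vertical) for 2645 non-members (grey, 7 named in orange) and for 36 members with the other members (purple). PRDX1 is at the far upper right with 0.32 and 0.39 and MALAT1 at the far lower left with -0.30 and -0.37.

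In the wider ubiquitin-proteasome pathway, 36 listed genes were found and 30 had a mean of at least 10 CPM. Of these, 5 were at least 1.5-fold higher in TC71 (beside 14.9% of all genes) and 4 in CHLA9 (beside 29.6%). Higher in TC71 were the cap subunit SEM1 with 194 and 365 CPM, the cap deubiquitinase UCHL5 with 131 and 216 CPM, POMP with 319 and 604 CPM, the ubiquitin gene RPS27A with 2793 and 5150 CPM, and the stress factor NFE2L2 with 49.2 and 114.5 CPM. Higher in CHLA9 were the shuttle UBQLN4 with 34.4 and 19.3 CPM, DDI2, the protease that activates NFE2L1, with 64.4 and 42.3 CPM, UFD1, a partner of the unfoldase VCP, with 205 and 131 CPM, and NFE2L1 with 51.8 and 32.8 CPM. The relation of NFE2L1 and DDI2 to the level of the members was not tested. AKIRIN2, which carries proteasomes into the nucleus after mitosis, had 42.4 and 34.5 CPM and was higher in G2M than in G1, with log2 ratios of 1.14 and 0.71.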

How the data were processed

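Single-cell RNA of 2 Ewing sarcoma lines was measured, with 1 library each. The authors aligned reads to hg38 and used Cell Ranger 3.1.0 to count UMIs per gene and barcode, and these deposited counts are raw and not normalized. From them, barcodes were kept that had 5000 UMIs or more, 2000 genes or more and no more than 15% mitochondrial UMIs, which held 174975302 UMIs in CHLA9 and 58355173 in TC71. No doublet caller was run and doublets were not removed, and an alternative left out the 8% of cells with most UMIs.

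Counts were summed per line or phase, and ratios of CPM got exact conditional binomial intervals (scipy 1.17.1). Genes with a mean of at least 10 CPM were compared, at 1.5-fold between lines and 1.25-fold between phases. Phases came from Seurat 5.3.0 (R 4.3.3) on genes found in at least 10 cells. Correlations used 10000 UMIs drawn from each cell (numpy 2.4.6, seed 1). Line ratios, Poisson intervals and correlations of sums were run on simulated data, and phase ratios were not. The counts for ratios and intervals were drawn with counting error alone, so variation between cells was not covered. Gene positions and overlaps came from GENCODE 44 and promoters from RefSeq on GRCh38.p14.

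Every member is accounted for by a value or range. Those given in full are the ends of each role, the 5 largest line differences each way, the inducible pairs, members past 1.25-fold between phases, the 10 non-members nearest to the sum and pathway genes past 1.5-fold. Members and lists were chosen with earlier results of these data known. One member of the symbol family and 1 gene of the pathway list are not reported here.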

Additional observations from a re-analysis of the deposited data

Results flagged for a closer look

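A few members moved in opposite directions between phases in the 2 lines, each beyond its counting interval. With 1 library per line the difference between lines was not tested. The share of all genes that did so was not counted, so these members are not set apart from other genes. From G1 to S, PSMD2 had a log2 ratio of -0.031 in CHLA9 (-0.060 to -0.0019, close to 0) and 0.11 in TC71, and PSME4 had -0.17 and 0.27. From G1 to G2M, the ATPase PSMC2 had -0.13 and 0.14, and the base scaffold PSMD1 had -0.056 and 0.19. PSMC2 shares exons with PMPCB on the same strand.

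Barcodes under 5000 UMIs, which the comparisons left out, also held proteasome transcripts. The summed members stood at 2906 CPM in 277 such CHLA9 barcodes and at 9098 CPM in 5869 TC71 barcodes, where the kept cells had 9411 and 9531 CPM. Ribosomal protein genes stood at 38261 and 200046 CPM in these barcodes, against 168299 and 196601 CPM in the kept cells.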

How the results depend on the processing

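No paired analysis was possible because a line has only 1 library. Values were called moved when they left their 95% counting interval, changed by more than 0.1 (correlations and SDs) or changed 1.5-fold (counts). The ratio of the summed members stayed above 0 throughout, at 0.0083 after the outlier step, 0.055 with at most 10% mitochondrial UMIs, 0.0087 without the 8% of cells with most UMIs, 0.10 with totals free of mitochondrial and ribosomal protein genes, 0.17 with median-of-ratios size factors and 0.012 as a mean over cells. In the same order, the CHLA9 sums were 9467, 9438, 9492, 12454, 8936 and 9496 CPM. The TC71 sums that moved were 9804 CPM with at most 10% mitochondrial UMIs, 13383 with reduced totals, 10038 with size factors and 9576 as a mean over cells. Counts of members past 1.5-fold ranged from 9 to 13 for TC71 and from 6 to 8 for CHLA9. Median-of-ratios scaling shifted the median of all genes by 0.15 on the log2 scale. The G2M to G1 ratio stayed below 0, at -0.15 in CHLA9 with all genes for scoring and at -0.15 and -0.12 in CHLA9 and TC71 without the cells with most UMIs, at -0.16 in CHLA9 with at most 10% mitochondrial UMIs and at -0.20 and -0.18 with reduced totals. The S to G1 ratio with reduced totals was -0.080 and -0.057, and in TC71 it was -0.050 with all genes for scoring and -0.059 in the cells that both scorings gave the same phase, a choice made after seeing the data. All-gene scoring put 24.8% of TC71 cells in G1 where the main scoring put 13.1%. Core with cap had rho of 0.29 in CHLA9 at 5000 UMIs and 0.45 in G1 cells of TC71. The SD of the core without PSMA6 was 0.98 and 0.92. The share of inducible UMIs stayed within its interval in all alternatives of cells. Of the 18 members past 1.5-fold, 5 changed sign under an alternative, and they did so only relative to genes within 10 Mb (chosen after seeing the data): PSMB2 at 0.11, PSMB3 at 0.48, PSMD4 at 0.11, PSMD11 at 0.054 and PSME3 at 0.25. Of the members under 1.5-fold, 7 others changed sign in that setting, PSMC4 also with at most 10% mitochondrial UMIs (0.030), reduced totals (0.033) and size factors (0.097), and PSMG3 also with size factors (0.014). With size factors the summed cap genes turned from -0.13 to 0.024. The cause of these changes was not tested, and the share of all genes that changed sign was not counted. Depth limits PSMB9 in CHLA9 (4 UMIs) and single pairs of members most.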
